A study of Mus musculus with 3 samples.

Results

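Iron and heme handling genes were examined in RNAseq data from 3 sorted cell subsets of mice bearing renal tumors. The 10 genes were chosen by their role in the cell, with no level used, from 36835 genes with a level: Hmox1, Blvrb and Slc48a1 for heme, Slc11a1, Slc11a2 and Tfrc for iron uptake and transport, Fth1 and Ftl1 for storage, and Slc40a1 and Cp for export. All 10 were found. Earlier results of these data were known when they were chosen. BALB/C mice carried tumors of Renca, a renal cancer cell line of the same strain, grown in the kidney, and no group was free of tumor. The labels name the line Renca, and the methods of the study name its derivative with the Cherry and luciferase reporters, Renca Ch+ L+. Macrophages from 30 pooled tumors were sorted by CD11b and by the macrophage antigen encoded by Emr1, with M1 cells high in CD11b and intermediate in the other and M2 cells the reverse. CD4 T cells, positive for TCRβ and CD4, came from 4 pooled spleens of tumor-bearing mice, although 1 label places them in the tumor. Harvest is given both as day 14 and as day 16. Each subset was 1 library of pooled mice, so that no difference has a replicate check, no p-value is given, and every comparison is between libraries.

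Iron enters most cells bound to transferrin through the transferrin receptor, is stored inside ferritin cages of heavy and light chains, and leaves through ferroportin, the only known iron exporter of mammalian cells. Macrophages also obtain iron from red cells and other cells that they engulf. Heme oxygenase 1 opens the heme ring and releases the iron, which ferroportin can return to the circulation or ferritin can hold. Many of these messages carry iron responsive elements, hairpins in the untranslated regions to which iron regulatory proteins bind when iron is low. Binding in the 5′UTR blocks translation, and binding in the 3′UTR protects the message from decay.

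The hairpins are shown first to mark the members whose annotated UTRs hold the letters of such a hairpin. Absence of a match does not show absence of the control. The pattern searched was a C, an arm of 5 bases, the loop CAGTGN of 6 bases and a second arm of 5 bases that pairs with the first, with G-T pairs allowed, on the transcript strand of annotated UTRs. It was found in 4 of the 10 members, Fth1, Ftl1 and Slc40a1 in the 5′UTR and Tfrc in the 3′UTR, where it occurred at 4 positions. Over all genes, 33 of 19945 with a 5′UTR (0.165%) and 125 of 20007 with a 3′UTR (0.625%) held it. With 4 paired bases allowed, Slc11a2 was added, and the shares of all genes were 0.948% and 4.05%. Each line gives 30 bases of the transcript, 5′ to 3′, from the GENCODE transcripts of build NCBIM37 (mm9), and capitals mark the C and the loop. A match is a description of the letters, and binding was not measured.

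Fth1 5′UTR, chr19:10057221-10057250, plus strand: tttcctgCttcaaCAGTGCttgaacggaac
Ftl1 5′UTR, chr7:52715149-52715178, minus strand: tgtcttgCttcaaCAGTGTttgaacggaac
Slc40a1 5′UTR, chr1:45982310-45982339, minus strand: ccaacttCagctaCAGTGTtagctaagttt
Tfrc 3′UTR, chr16:32631304-32631333, plus strand: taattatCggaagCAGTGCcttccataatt
Tfrc 3′UTR, chr16:32631683-32631712, plus strand: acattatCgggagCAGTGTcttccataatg
Tfrc 3′UTR, chr16:32631748-32631777, plus strand: tctatatCggagaCAGTGAtctccatatgt
Tfrc 3′UTR, chr16:32631795-32631824, plus strand: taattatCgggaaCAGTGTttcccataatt
Slc11a2 3′UTR (4 of 5 pairs), chr15:100225584-100225613, minus strand: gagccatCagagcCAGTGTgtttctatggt

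The names of the libraries were checked against marker genes before the members were compared. All 13 T-cell genes were highest in the column headed M2, with Cd3e, a chain of the CD3 complex, at 126 FPKM (fragments normalised to transcript length and to library size) there, 0.141 in the column headed CD4 and 0.131 in the column headed M1. Of 12 macrophage genes, 10 were highest in the column headed CD4 and 2 in the column headed M1, with summed levels of 13382 FPKM under CD4, 8469 under M1 and 664 under M2, and none was at 0 in any column. These levels go against the headings M2 and CD4. The genes of the sorting antigens gave the same picture. Emr1 was at 215 FPKM under CD4, 45.3 under M1 and 9.16 under M2. Itgam, which encodes CD11b, was at 299 FPKM under M1, 201 under CD4 and 14.7 under M2. Cd4 was at 166 FPKM under M2, 15.2 under CD4 and 0.870 under M1. Whether the headings M2 and CD4 were exchanged was not settled here. If they were, each value given under M2 would belong to the CD4 T cells and each value under CD4 to the M2 macrophages. The headings are kept as names only, and no comparison is free of a library whose markers go against its name. In bulk RNA, fewer cells of a type and less RNA per cell cannot be told apart. Erythroid genes were also highest in the column headed M2 for 8 of 9 found, with summed levels of 635 FPKM there and 105 in each of the others. The same held for 8 of 9 neutrophil genes, with 234 FPKM under M2, 10.9 under CD4 and 49.8 under M1. Kidney epithelial genes summed to 110.3, 60.9 and 40.2 FPKM under M2, CD4 and M1. Most of each sum was Cdh16, at 87.8, 46.0 and 33.4 FPKM in that order. By gene, 7 of the 12 were highest under CD4 and 5 under M2.

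Gene levels are sums of FPKM over transcript rows, and a gene was counted as different when log2(FPKM + 1) differed by at least 1, or 2-fold. Between the columns headed M2 and M1, 5 of the 10 members were at least 2-fold lower under M2 and 1 was higher. The same threshold was passed by 4.90% of all 36835 genes for lower and 5.73% for higher, and by 14.5% and 17.0% of the 12443 genes with at least 1 FPKM in either library. Between the columns headed M2 and CD4, 6 members were lower under M2 and 0 were higher. All genes gave 5.17% lower and 5.85% higher, and genes with at least 1 FPKM 15.3% and 17.3%. Between the columns headed CD4 and M1, 2 members were higher under CD4 and 1 was lower, beside 2.20% higher and 2.28% lower of all genes and 6.98% and 7.24% of those with at least 1 FPKM. The 1 lower member was Blvrb, which is also 1 of the 5 lower under M2 than under M1, and both of its calls depend on which of its rows is read. The member medians on the log2 scale were -0.68, -1.26 and 0.34 in these 3 comparisons, and those of genes with at least 1 FPKM 0.10, 0.12 and -0.01. The comparisons share libraries and are not separate evidence. The members lower under M2 were lower in the library whose macrophage markers summed to the least, and the part of those cells in these differences was not tested.

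**Figure D1:**
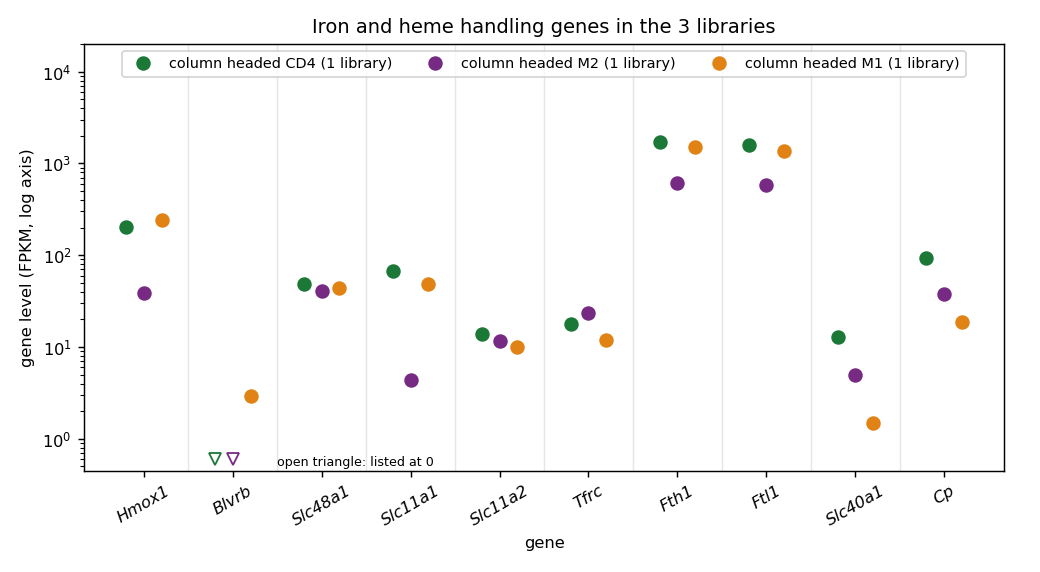
Level of each of the 10 genes in FPKM (log axis) in the columns headed CD4, M2 and M1, 1 library each and so without error bars. Fth1 and Ftl1 lie at 575 FPKM or more in all 3 columns, Slc11a1 and Hmox1 are lowest in the column headed M2, and Slc40a1 and Cp are highest in the column headed CD4; open triangles mark the first-listed Blvrb row at 0.

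**Figure D2:**
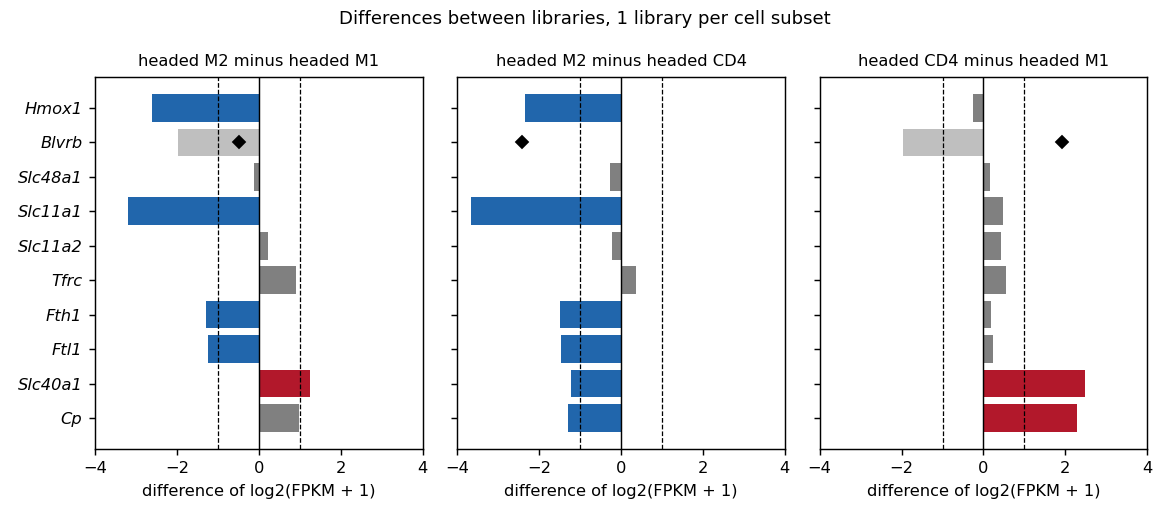
Difference of log2(FPKM + 1) for each gene in the 3 comparisons, with dashed lines at 2-fold, blue bars at least 2-fold lower red bars at least 2-fold higher and dark grey bars between. Light bars are the first-listed row of Blvrb and black diamonds its highest row, which lies on the other side of 0 in the comparison of CD4 with M1.

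The ferritin chains were the most abundant members. Fth1 (ENSMUSG00000024661, chr19:10057193-10059582), the heavy chain that oxidizes iron as it enters the cage, was at 1719 FPKM under CD4, 1506 under M1 and 609 under M2. The first pair lay within 1.14-fold, and the level under M2 was 2.82-fold below CD4 and 2.47-fold below M1. Ftl1 (ENSMUSG00000050708, chr7:52713314-52715254), the light chain that promotes formation of the iron core, had 1604 FPKM under CD4, 1359 under M1 and 575 under M2, 2.79-fold and 2.36-fold lower under M2. The ratio of Fth1 to Ftl1 was 1.07 under CD4, 1.11 under M1 and 1.06 under M2, so that the summed gene levels kept nearly the same proportion in the 3 libraries. Both carry the 5′UTR hairpin shown above, and translation was not measured.

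Part of the ferritin signal is uncertain in its assignment. In the table, 22.9% of the Ftl1 level under CD4 and 19.1% under M2 lay in the row of transcript Ftl1-002, annotated as a target of nonsense-mediated decay, and 0% under M1. The coding row Ftl1-001 alone was at 1237 FPKM under CD4, 1359 under M1 and 466 under M2. With that row alone the level under M2 was 2.66-fold below CD4 and 2.92-fold below M1. The ratio of Fth1 to Ftl1 given above counts both rows, and on Ftl1-001 alone it was less even across the libraries. Ftl2, annotated as a pseudogene on chromosome 4 (125181532 to 125182083), was 98.7% identical to Ftl1 over 552 aligned bases. Its level was 202 FPKM under CD4, 188 under M1 and 74.0 under M2, and its ratio to Ftl1 lay between 0.126 and 0.138. Reads of these copies could be split between them.

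**Figure D3:**
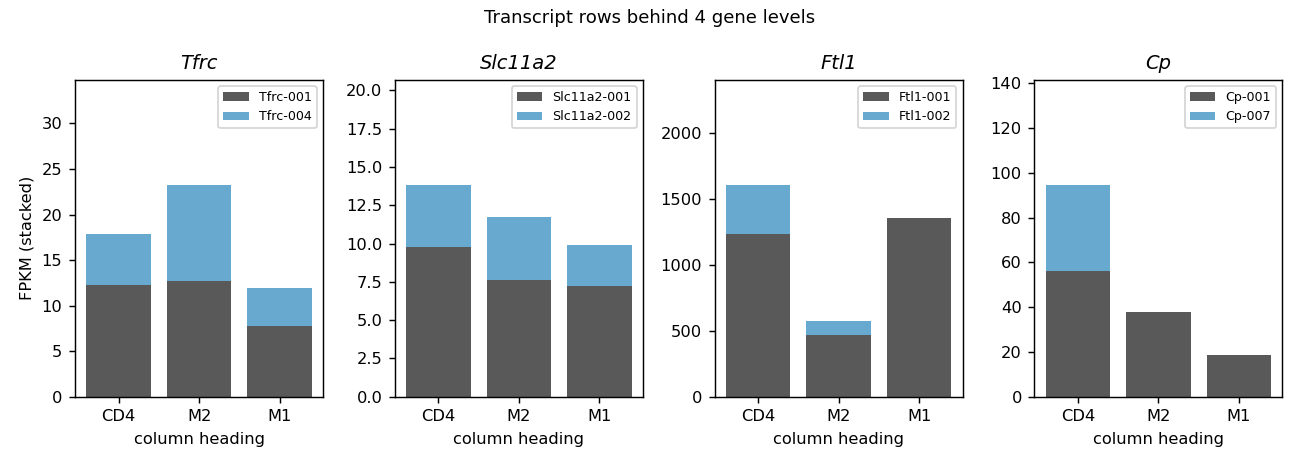
Stacked FPKM of the transcript rows that make up the levels of Tfrc, Slc11a2, Ftl1 and Cp, by column heading, 1 library each. Cp-007 is above 0 only under CD4 and Ftl1-002 only under CD4 and M2, while Tfrc and Slc11a2 have both rows in all 3 columns.

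Hmox1 (ENSMUSG00000005413, chr8:77617490-77624495), the inducible heme oxygenase, was at 239 FPKM under M1, 201 under CD4 and 38.7 under M2. The columns headed M1 and CD4 differed by 1.19-fold, under the 2-fold limit, and the column headed M2 was 6.18-fold and 5.19-fold lower. On the log2 scale these differences were -2.60 and -2.35. The 12 macrophage genes ranged from -4.25 to -2.02 between M2 and M1, so that Hmox1 lay within their range. Between M2 and CD4 they ranged from -5.00 to -2.43, and Hmox1, at -2.35, lay outside that range, less lowered than any of them. Among 22144 protein-coding genes, the nearest to Hmox1 in log2(FPKM + 1) over the 3 libraries were Efhd2, Sirpa and Erp29, at distances of 0.20, 0.23 and 0.44. Sirpa, an inhibitory receptor of myeloid cells, was at 223 FPKM under CD4, 237 under M1 and 43.5 under M2.

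Blvrb (ENSMUSG00000040466, chr7:28232997-28251163) encodes biliverdin reductase B, which acts downstream of heme breakdown. Its coding transcript had 2 rows with values in all columns. The first was at 2.93 FPKM under M1 and listed at 0 under CD4 and M2. The second was at 55.6 FPKM under CD4, 13.9 under M1 and 9.56 under M2. Read by the first row the gene was at least 2-fold lower under CD4 than under M1, and by the second it was 4.01-fold higher. By the second row it was 5.81-fold lower under M2 than under CD4 and 1.45-fold lower than under M1. No direction between CD4 and M1 is therefore given for Blvrb. The other enzymes of the pathway are given by the first row only. Hmox2, the constitutive heme oxygenase, was at 57.2 FPKM under CD4, 42.0 under M1 and 17.8 under M2. Blvra, the main biliverdin reductase, was at 49.9, 39.4 and 15.4 FPKM. Both were at least 2-fold lower under M2 in either comparison, and the columns headed CD4 and M1 lay within 1.36-fold.

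Slc48a1 (ENSMUSG00000081534, chr15:97614786-97623123), which carries heme out of phagolysosomes, differed least across the 3 libraries. It was at 49.1 FPKM under CD4, 43.6 under M1 and 40.3 under M2, a range of 1.22-fold. Hmox1 and Slc40a1, which act after it in heme recycling, had ranges of 6.18-fold and 8.67-fold.

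Slc11a1 (ENSMUSG00000026177, chr1:74421777-74432636) encodes the metal transporter of the phagosome also known as Nramp1, which withholds iron from engulfed microbes. It was at 67.7 FPKM under CD4, 48.3 under M1 and 4.41 under M2, 15.4-fold and 11.0-fold lower under M2. On the log2(FPKM + 1) scale these were the largest differences of any member in those comparisons, but with a pseudocount of 0.1 the first-listed row of Blvrb differed more between M2 and M1, by -4.92 against -3.42. The columns headed CD4 and M1 lay within 1.40-fold of each other. Its level exceeded that of 95.6% of detected genes under CD4, 93.3% under M1 and 55.4% under M2. A row annotated as a retained intron, Slc11a1-002, added 7.24 FPKM under M1 and 0.816 under M2 and was listed at 0 under CD4.

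Its relative Slc11a2 (ENSMUSG00000023030, chr15:100218329-100255503), or DMT1, moves iron out of endosomes and into absorptive cells. It was at 13.8 FPKM under CD4, 11.7 under M2 and 9.88 under M1, and no pair of libraries differed by more than 1.40-fold. Transcript Slc11a2-002, whose 3′UTR holds the hairpin with 4 of 5 pairs, was at 4.01 FPKM under CD4, 4.09 under M2 and 2.65 under M1. Slc11a2-001, in which the pattern was not found, had 9.78 FPKM under CD4, 7.62 under M2 and 7.23 under M1. The row without the pattern was thus the higher of the pair in each library.

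Tfrc (ENSMUSG00000022797, chr16:32609006-32632880), the transferrin receptor, was the only member highest under M2, at 23.2 FPKM, with 17.8 under CD4 and 11.9 under M1. The differences from M2, 1.30-fold and 1.94-fold, stayed under the 2-fold limit. Tfrc-001, the coding transcript with the 4 hairpins, was at 12.7 FPKM under M2, 12.3 under CD4 and 7.81 under M1. The row Tfrc-004, annotated as a retained intron, made up 45.3% of the level under M2, 31.0% under CD4 and 34.5% under M1. On the coding row the difference between M2 and CD4 was 1.03-fold. The ratio of Fth1 to Tfrc, both in FPKM, was 96.5 under CD4, 126 under M1 and 26.2 under M2.

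Slc40a1 (ENSMUSG00000025993, chr1:45964915-45982439), ferroportin, was at 12.9 FPKM under CD4, 4.94 under M2 and 1.49 under M1, 8.67-fold higher under CD4 than under M1 and 3.32-fold higher under M2 than under M1. The lowest of these values corresponds to about 306 fragments, with a 95% Poisson interval of 273 to 342 that covers counting error only. The 3 levels are more than 2-fold apart, so that the order CD4, M2, M1 has no close neighbours, but it rests on 1 row in 1 library each. When each library was rescaled to a smaller common total before 1 was added, all 3 differences of Slc40a1 fell short of 2-fold, at 0.44 for CD4 against M1, 0.18 for M2 against M1 and -0.26 for M2 against CD4 on the log2 scale. The ratio of Slc40a1 to Fth1 was 0.00751 under CD4, 0.00812 under M2 and 0.000989 under M1. The protein-coding genes nearest to it were Bank1, Gdpd1 and Col3a1, at distances of 0.56, 0.59 and 0.61, farther than the neighbours of Hmox1.

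Cp (ENSMUSG00000003617, chr3:19857054-19909145), ceruloplasmin, is the copper oxidase that assists ferroportin by loading iron onto transferrin. It was at 94.3 FPKM under CD4, 37.7 under M2 and 18.6 under M1, 5.08-fold higher under CD4 than under M1 and 2.50-fold higher than under M2. Transcript Cp-007 was at 38.0 FPKM under CD4, which was 40.2% of the level there, and was listed at 0 in the other columns. On the row Cp-001 alone, at 56.4, 37.7 and 18.6 FPKM, the difference between CD4 and M1 was 3.03-fold and that between CD4 and M2 1.49-fold. The latter is under the 2-fold limit. Of the 12 kidney epithelial genes, 7 were also highest under CD4 and 5 under M2, and their part in the level of Cp was not tested.

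A further 56 genes of iron and heme metabolism, listed by role, were all found in the table. Of these, 15 were at least 2-fold lower under M2 than under M1 and 4 were higher, and 17 were lower under M2 than under CD4 and 4 higher. Between CD4 and M1, 6 were higher under CD4 and 1 lower. Over all genes the shares were 4.90% lower and 5.73% higher, 5.17% lower and 5.85% higher, and 2.20% higher and 2.28% lower in these comparisons. Counting only genes with at least 1 FPKM in either library, the list had 44, 45 and 42 genes in the 3 comparisons, with the same numbers past the limit, beside 14.5% lower and 17.0% higher, 15.3% lower and 17.3% higher, and 6.98% higher and 7.24% lower of all such genes. The medians of these were -0.04, -0.25 and 0.10 on the log2 scale, beside 0.10, 0.12 and -0.01 for all such genes.

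**Figure D4:**
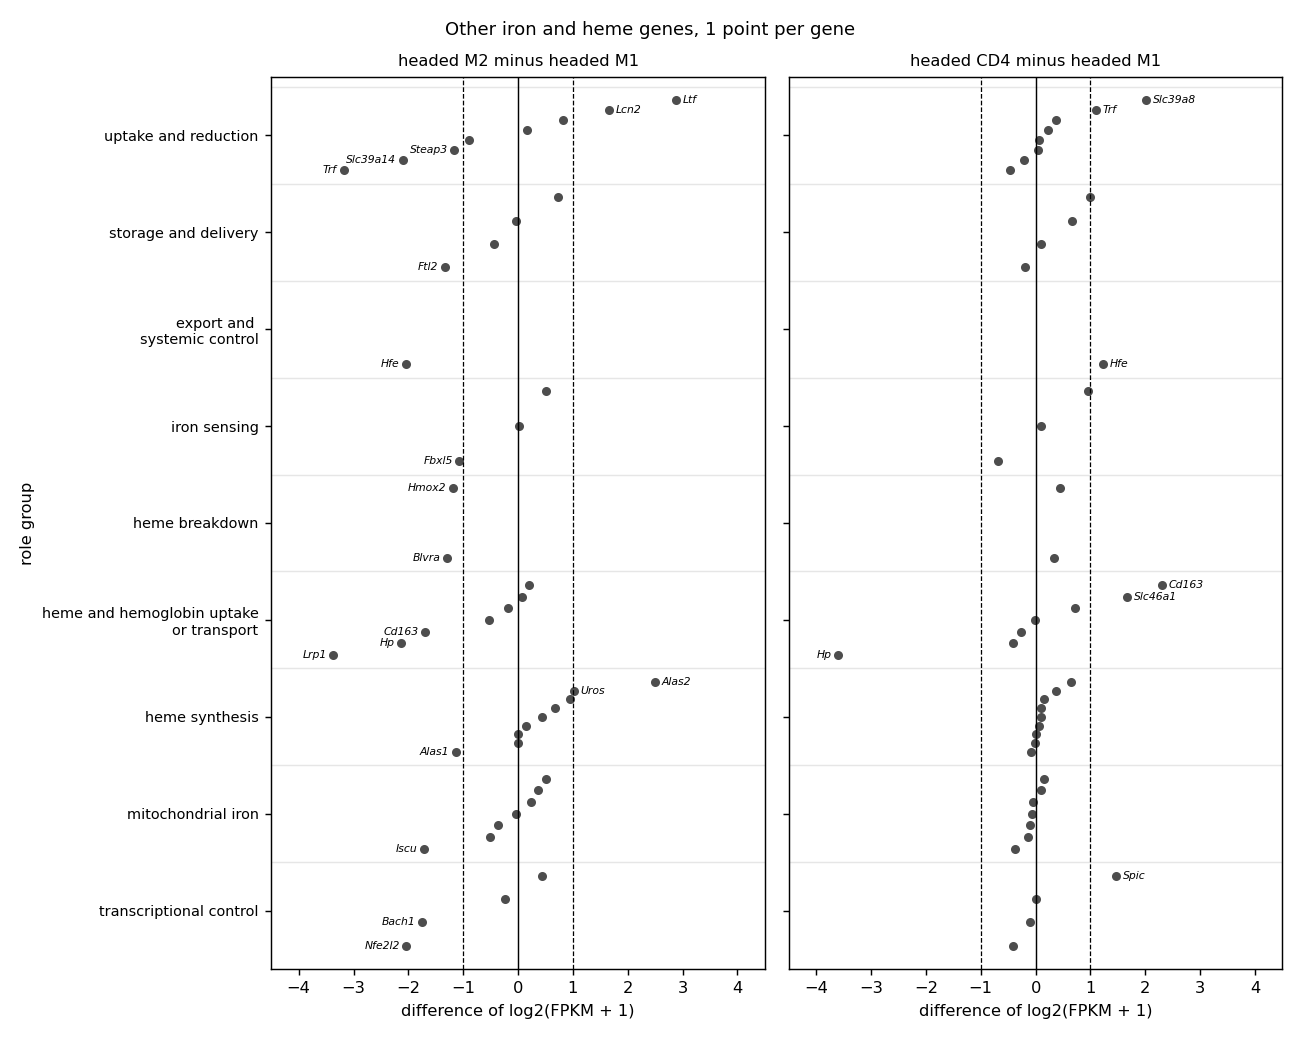
Difference of log2(FPKM + 1) for genes of the wider iron and heme list with at least 1 FPKM in any library, by role, for M2 minus M1 and CD4 minus M1; each point is 1 gene and dashed lines mark 2-fold. More genes lie left of the dashed lines in the first panel (15 against 4), and in the second all but 7 of the 56 listed genes are within 2-fold.

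Of the 6 genes higher under CD4 than under M1, 2 were among 9 genes of heme and hemoglobin uptake or transport, 2 among 10 of iron uptake and reduction, 1 among 7 of export and systemic control and 1 among 4 of transcriptional control. Cd163, the receptor for hemoglobin bound to haptoglobin, was at 20.3 FPKM under CD4, 3.34 under M1 and 0.341 under M2, 6.08-fold higher under CD4 than under M1. Spic, a transcription factor of red pulp macrophages that is known to promote Slc40a1 expression, had 3.31, 0.554 and 1.09 FPKM under CD4, M1 and M2. Slc46a1, a folate transporter also described as a heme carrier, was at 9.27, 2.22 and 2.38 FPKM. These low levels differ by less on the log2(FPKM + 1) scale than as ratios.

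Trf, transferrin itself, was at 407 FPKM under CD4, 189 under M1 and 20.0 under M2, with 2.15-fold between CD4 and M1; a second annotated locus of that symbol overlaps it, so that fragments can be shared. Hfe, a partner of the transferrin receptor in iron sensing, was at 45.0, 18.6 and 3.71 FPKM. Slc39a8, a zinc and iron importer, was at 6.60 and 0.870 FPKM and was listed at 0 under M2. The 1 gene lower under CD4 was Hp, haptoglobin, at 27.4 FPKM under M1, 5.46 under M2 and 1.34 under CD4. Of 9 neutrophil genes, 3 were also at least 2-fold lower under CD4 than under M1, and 6 lay within that limit. Of all genes 2.28% were lower, and 7.24% of those with at least 1 FPKM. S100a8, among the 3, was at 19.0 FPKM under M1, 84.5 under M2 and 4.17 under CD4. The 9 genes summed to 49.8 FPKM under M1, 234 under M2 and 10.9 under CD4. The part of neutrophil RNA in the level of Hp was not tested.

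Under M2, lower genes included those of control and uptake. Nfe2l2, the activator of the antioxidant program that includes Hmox1, was at 16.9 FPKM under M2, 54.6 under CD4 and 72.6 under M1. Bach1, a heme-sensing repressor of Hmox1, was at 6.55, 22.6 and 24.3 FPKM in that order. Lrp1, the receptor for heme bound to hemopexin, was at 8.18, 70.4 and 93.8 FPKM. Steap3, the endosomal iron reductase, was at 9.25, 22.7 and 22.0 FPKM, and Slc39a14, an importer of iron outside transferrin, at 3.77, 13.8 and 19.5. Iscu, the scaffold for iron-sulfur clusters, was at 6.50, 21.3 and 23.5 FPKM. Ncoa4, the receptor that delivers ferritin for degradation, was lower under M2 than under CD4 at 14.5 and 30.6 FPKM, with 14.9 under M1.

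Of 3 iron sensing genes, 1 passed the limit between M2 and M1 and none in the other comparisons. Of all genes with at least 1 FPKM in either library, 14.5% were lower and 17.0% higher under M2 than under M1. These shares were 15.3% and 17.3% for M2 against CD4, and 7.24% and 6.98% for CD4 against M1. Ireb2, which encodes iron regulatory protein 2, was at 16.5 FPKM under M2, 17.4 under CD4 and 16.2 under M1. Aco1, which encodes iron regulatory protein 1, was at 18.3, 25.2 and 12.6 FPKM, and the difference of 0.95 between CD4 and M1 on the log2 scale was just short of the limit. Fbxl5, which targets the regulatory proteins for degradation when iron is high, was highest under M1, at 72.4 FPKM, with 44.5 under CD4 and 34.0 under M2, and passed the limit between M2 and M1.

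Of 9 heme synthesis genes, none differed by 2-fold between CD4 and M1, where 35187 of all 36835 genes and 9939 of the 11587 with at least 1 FPKM were also within that limit. Alas1, the first enzyme of the pathway outside red cells, was at 24.3 FPKM under CD4, 24.7 under M1 and 10.8 under M2. Alas2, its erythroid form and also on the list of erythroid markers, was at 4.66 FPKM under M2 and listed at 0 in the other columns. Slc4a1, an anion exchanger of red cells, was likewise at 5.52 FPKM under M2 and listed at 0 in the others. The higher Uros level under M2, 9.59 FPKM against 4.24 under M1 and 4.80 under CD4, passed the limit against M1. The part of erythroid RNA in these levels was not tested.

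Of the 10 genes of the uptake and reduction group, 2, Ltf and Lcn2, were higher under M2 in both comparisons. Lower under M2 were 3 of the group against M1 and 4 against CD4. Of all genes, 5.73% and 5.85% were higher and 4.90% and 5.17% lower. Of those with at least 1 FPKM, 17.0% and 17.3% were higher and 14.5% and 15.3% lower. Ltf, lactoferrin, an iron-binding protein of neutrophil granules, was at 7.75 FPKM under M2, 0.191 under M1 and 0.0192 under CD4. It is also on the list of neutrophil markers. Lcn2, which binds bacterial siderophores, was at 21.6, 6.17 and 7.34 FPKM. The neutrophil granule gene Ngp was at 26.6, 0.0270 and 0.0126 FPKM in that order, and its part was not tested. Ftmt, Hamp2, Hfe2 and Bmp6 were listed at 0 in all 3 columns. Such a value can be a failed estimate, since Rps18, a ribosomal protein gene chosen after its values were seen, was also listed at 0 in all 3 by the same reading of rows.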

How the data were processed

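RNA of 3 sorted cell subsets was sequenced, with 1 library each. The authors aligned paired reads to mouse genome mm9 with TopHat and Bowtie, assembled and quantified transcripts with Cufflinks guided by Ensembl annotation, and deposited 1 table in FPKM with a column per library. The labels also list Cuffdiff. How the assemblies were joined is not given in the sources used here, and a dash stands where no value is listed. Each column carried the title of 1 sample as its heading.

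Of 92519 identifiers, 97.6% were found in the GENCODE annotation of NCBIM37, which is the same build. For each identifier the first row with values in all 3 columns was kept, and rows were summed per gene. Differences are of log2(FPKM + 1), which makes the change of a low gene look smaller. Genes were looked up by symbol, with Tfr2, Flvcr1 and Flvcr2 under older symbols, and 1 erythroid marker was not matched. FPKM carries no depth, so the number of fragments was taken from the commonest small product of FPKM and length among 2196 genes with a single transcript of 2500 to 8000 bases, giving about 60800000 for the libraries headed CD4 and M1 and 58700000 for that headed M2. At these depths the 28 member values above 0 correspond to between 183 and 93832 fragments. With 1 library per subset no test was run.

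Genes named were the 10 members, genes of the wider list at least 2-fold apart in a comparison or listed at 0, the marker genes a result turns on, and the 3 protein-coding genes nearest to Hmox1 and to Slc40a1 by Euclidean distance over the 3 libraries. Ireb2 and Aco1, with Rps18, are named outside this rule and were chosen after their values were seen. The members and lists were chosen with earlier results of these data known. The alternatives tried were another pseudocount, a minimum of 1 FPKM, other ways of joining rows, other scalings and a 4-fold limit. The joining of rows and the fold calls were tested on simulated data. The software was matplotlib 3.10.9, scipy 1.17.1, pandas 2.3.3 and numpy 2.4.6 under Python 3.11.15.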

Additional observations from a re-analysis of the deposited data

Results flagged for a closer look

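Rows of member genes that the reading by first row leaves out held values above 0. The gene levels of the report do not include them, while the alternative that sums all rows does, and Blvrb is also given by its second row. For Blvrb they were at 55.6 FPKM under CD4, 9.56 under M2 and 13.9 under M1, all in 1 row of the coding transcript, and above the row that was kept. For Cp the rows left out summed to 3.29 FPKM under CD4 and 3.84 under M2, for Slc11a1 to 2.86 under M1, and for Slc11a2 to 0.682 under CD4 and 1.41 under M1. For Cp, Slc11a1 and Slc11a2 these are small beside the levels kept.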

How the results depend on the processing

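No paired analysis was possible because there was 1 library per subset, and for the same reason no replicate could be left out. Of 179 recomputed log2 differences of single members over 7 settings, 161 stayed within 1.5-fold, 16 moved further and 2 reversed. The 2 reversals were Blvrb between CD4 and M1, from -1.97 to 1.67 with all rows summed and 1.93 with the highest row, because a row of the same identifier with higher values then enters. Members lower under CD4 than M1 went from 1 to 0 with either reading, after rescaling and at 4-fold. Members higher under M2 than M1 went from 1 to 2 with a pseudocount of 0.1 or all rows summed, where Cp was added, and to 0 after rescaling or at 4-fold. Members lower under M2 were 2 at 4-fold against M1 and 2 against CD4, and those higher under CD4 than M1 were 1 after rescaling. Rescaling also took Slc40a1 out of every call and Cp out of those lower under M2 than CD4, which left 4.

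Rescaling each library to the same smaller total before 1 is added shrinks by construction the differences of low genes. The wider list then had 0 higher and 3 lower under M2 than M1, 0 and 3 for M2 against CD4, and 0 and 0 for CD4 against M1. All genes then gave 250 higher and 294 lower for M2 against M1, 326 and 306 for M2 against CD4, and 72 and 110 for CD4 against M1. At 4-fold the wider list gave 2 higher and 6 lower, 2 and 5, and 2 higher for CD4 against M1, and all genes 799 and 688, 815 and 721, and 259 and 270. With a pseudocount of 0.1 all genes gave 3798 and 2728 for M2 against M1, 3740 higher for M2 against CD4, and 1647 and 1537 for CD4 against M1, where the wider list had 2 lower. With all rows summed, the wider list had 5 higher and 11 lower for M2 against M1, and 6 and 15 for M2 against CD4. All genes then gave 2806 and 1877, and 2853 and 1985. By the highest row per identifier the wider list had 4 and 15, and 4 and 18.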
